A study of Mus musculus with 9 samples.

Results

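The genes described here are 43 genes of interstitial matrix and fibrosis among the 24421 gene symbols of the count tables. They were chosen by symbol, and all 43 were found. They fall into 6 fibrillar collagens, 5 chains of collagens VI and VIII, 3 fibril-associated collagens, 10 proteins of collagen maturation and crosslinking, 10 glycoproteins and elastic fibre proteins, 6 proteoglycans and 3 ligands of transforming growth factor beta (TGF-beta). The libraries came from the retinal pigment epithelium (RPE) and choroid of 8-week-old male mice with laser-induced choroidal neovascularization (CNV), a lesion in which vessels grow from the choroid through a burn in Bruch's membrane. Each eye had 4 burns and received 5 µg of a reagent in the vitreous, at 5 mg/ml. There were 3 libraries from eyes given ABTAA, an antibody that binds angiopoietin-2 and activates the receptor TIE2. There were 3 from eyes given VEGF Trap, a decoy receptor that binds vascular endothelial growth factor, and 3 from eyes given Fc, the constant region of an antibody, used as the control protein. The column headings in the Fc tables read ctrl-KO, which names no Fc; the sample titles say Fc, and every comparison with Fc rests on those titles. All 9 libraries came from burned eyes, so they compare reagents in injured tissue and hold no uninjured baseline. Laser capture on flat mounts took the lesion with a rim of RPE and choroid around it, and burns with bleeding were left out. No label names the strain, the time of harvest or whether each library came from a separate mouse, so p-values measure the spread between these libraries, which may be technical.

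Fibrillar collagens are made as procollagens, folded in the endoplasmic reticulum with the chaperone HSP47, hydroxylated, secreted, trimmed and crosslinked by lysyl oxidases. Activated fibroblasts and myofibroblasts make most of this matrix in a scar, and TGF-beta is a main inducer of the genes. In the eye, the vascular membrane that forms after a laser burn is known to turn into a fibrous scar, and cells of the RPE and choroid can both add to it.

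Depth ran from 6335805 to 14439835 counts per library, with ABTAA replicate 3 and VEGF Trap replicate 3 the shallowest. The kit reads the 3' ends of transcripts, so a count is not scaled by transcript length and levels of different genes are not compared. The labelled tissue was checked on RPE and endothelial genes: Rpe65, the visual cycle isomerase of the RPE, lay between 177 and 273 CPM (counts scaled to a common library size) in ABTAA libraries, 183 and 259 in VEGF Trap libraries and 129 and 202 in Fc libraries, and Pecam1 of endothelial cells between 351 and 357, 258 and 295, and 244 and 285 in the same groups. Best1, another RPE gene, was near 0 throughout and at 0 in 1 Fc library. All 43 members were detected in all 9 libraries and all 43 passed the filter on low counts. Together they held between 2.292% and 2.831% of counts in ABTAA libraries, 2.254% and 2.588% in VEGF Trap libraries, and 2.358% and 2.801% in Fc libraries, ranges that overlap.

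The promoters of 5 collagen genes are shown because the results turn on how the chains of 1 collagen behave beside each other: the 3 chains of collagen VI, of which 1 was called, Col1a2 of collagen I, whose 2 chains varied together, and Col3a1. The sequences are RefSeq's on GRCm38.p6, 250 bases before the RefSeq start and 50 bases after it, written in the direction of the gene. Capitals mark the CCAAT box, the letters TATAA as in a TATA box, the motif GGGCGG that SP1 binds, and the motif CAGAC that SMAD proteins bind, each read on either strand. The windows lie on the minus strand at chr10:76725995-76726294 (Col6a1), chr10:76623355-76623654 (Col6a2, the first of 2 entries) and chr1:90843922-90844221 (Col6a3). Those on the plus strand lie at chr6:4505368-4505667 (Col1a2) and chr1:45311288-45311587 (Col3a1). For Col6a1, the printed Col6a2 entry and Col1a2, the RefSeq start lies downstream of the start of the GENCODE gene. Those windows therefore lie partly or, for Col1a2, wholly inside the GENCODE gene.
Col6a1: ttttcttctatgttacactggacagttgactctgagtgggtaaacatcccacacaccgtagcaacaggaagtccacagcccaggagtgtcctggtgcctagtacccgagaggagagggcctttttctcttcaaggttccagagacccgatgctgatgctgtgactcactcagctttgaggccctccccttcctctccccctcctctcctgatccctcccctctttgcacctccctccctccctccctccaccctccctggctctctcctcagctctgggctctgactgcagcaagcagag
Col6a2: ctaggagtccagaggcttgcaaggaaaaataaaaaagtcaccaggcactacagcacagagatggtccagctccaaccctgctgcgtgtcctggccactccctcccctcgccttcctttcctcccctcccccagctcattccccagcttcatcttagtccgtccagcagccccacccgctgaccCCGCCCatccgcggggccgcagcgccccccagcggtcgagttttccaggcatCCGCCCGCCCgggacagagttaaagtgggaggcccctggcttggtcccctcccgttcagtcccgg
Col6a3: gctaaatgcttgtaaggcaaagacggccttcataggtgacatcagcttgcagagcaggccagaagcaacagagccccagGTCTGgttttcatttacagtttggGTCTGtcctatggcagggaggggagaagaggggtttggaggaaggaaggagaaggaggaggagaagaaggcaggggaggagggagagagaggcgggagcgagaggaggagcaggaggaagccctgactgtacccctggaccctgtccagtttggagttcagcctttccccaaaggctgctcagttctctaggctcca
Col1a2: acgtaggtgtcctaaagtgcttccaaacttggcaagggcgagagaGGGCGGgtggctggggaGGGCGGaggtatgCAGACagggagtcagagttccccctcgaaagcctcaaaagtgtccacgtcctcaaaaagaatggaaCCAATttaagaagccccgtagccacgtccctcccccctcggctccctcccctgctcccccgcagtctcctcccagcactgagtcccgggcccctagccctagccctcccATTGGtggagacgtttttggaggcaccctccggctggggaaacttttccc
Col3a1: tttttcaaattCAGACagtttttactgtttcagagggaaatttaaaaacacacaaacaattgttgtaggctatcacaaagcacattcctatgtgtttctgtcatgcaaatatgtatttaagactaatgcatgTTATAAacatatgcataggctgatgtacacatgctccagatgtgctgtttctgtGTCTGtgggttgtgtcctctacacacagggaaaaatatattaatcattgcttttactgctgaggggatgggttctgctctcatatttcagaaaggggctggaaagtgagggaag
Col6a1 held none of the 4 motifs in this window, the printed Col6a2 entry held 3 GGGCGG, 2 of them overlapping, and Col6a3 held 2 CAGAC. The second Col6a2 entry, which is not printed, held 1 GGGCGG and 1 CAGAC. Its start is that of the GENCODE gene. Col1a2 held 2 CCAAT, 2 GGGCGG and 1 CAGAC, and Col3a1 held 2 CAGAC and 2 overlapping TATAA. RefSeq entries were found for 26 members, 29 promoters in all. GGGCGG stood in 69.0% of these 29 promoters and in 35.7% of all 32851 promoters of the table. The shares were 27.6% and 37.4% for CCAAT, 31.0% and 24.9% for TATAA, and 55.2% and 49.6% for CAGAC. A match describes letters only, and no binding was measured here.

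Across 43 members, 1 was called higher in ABTAA than in Fc libraries and none lower, by edgeR's quasi-likelihood test with Benjamini-Hochberg adjustment over all 14054 genes tested and a threshold of 0.05. The gene was Col6a1, a chain of collagen VI. Over all genes 1.4% were called in this comparison, 0.847% higher and 0.555% lower, so 1 of 43 members (2.33%) is near the background. DESeq2 called 4 members higher (Col6a1, Loxl1, Fbn1, Col16a1) and limma-voom 2 (Col6a1, Loxl1), and neither called a member lower. These tools also called more of the 14054 genes than edgeR did. DESeq2 called 427 higher and 323 lower, and limma-voom 230 higher and 181 lower. At an unadjusted p under 0.05 there were 6 members higher (14.0%) and 2 lower (4.65%), where 8.64% of all genes were higher and 8.23% lower, 16.9% in either direction. Log2 fold changes lay above 0 for 29 members and below 0 for 14, with a median of 0.10, against a median of 0 over all genes tested. In bulk tissue, fewer cells of a type and less RNA per cell cannot be told apart, and this holds for every value here.

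Between VEGF Trap and Fc libraries edgeR called 0 of 43 members, where 1.02% of all genes were called, 0.512% in each direction. At an unadjusted p under 0.05 there were 5 members higher and 6 lower, against 7.89% and 7.49% of all genes, 15.4% in either direction. DESeq2 called 3 members, Loxl1 and Col16a1 higher and Ctgf lower, and limma-voom called 0. Of all 14054 genes, DESeq2 called 360 higher and 311 lower, and limma-voom 131 higher and 111 lower. Log2 fold changes lay above 0 for 26 members and below 0 for 17, with a median of 0.06 and a range from -1.09 to 0.41. Between ABTAA and VEGF Trap libraries edgeR called 0 of 43 members and 0% of all genes, with 4 members higher and 0 lower at an unadjusted p under 0.05, against 2.64% and 2.42% of all genes, 5.06% in either direction. DESeq2 and limma-voom called 0 members there. For ABTAA minus VEGF Trap the log2 fold change was above 0 for 32 members and below 0 for 11, with a median of 0.05. The first 2 comparisons share the Fc libraries, so their values stand side by side and are not independent. The plot of fold changes gives all 43 members in both comparisons with Fc.

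**Figure D1:**
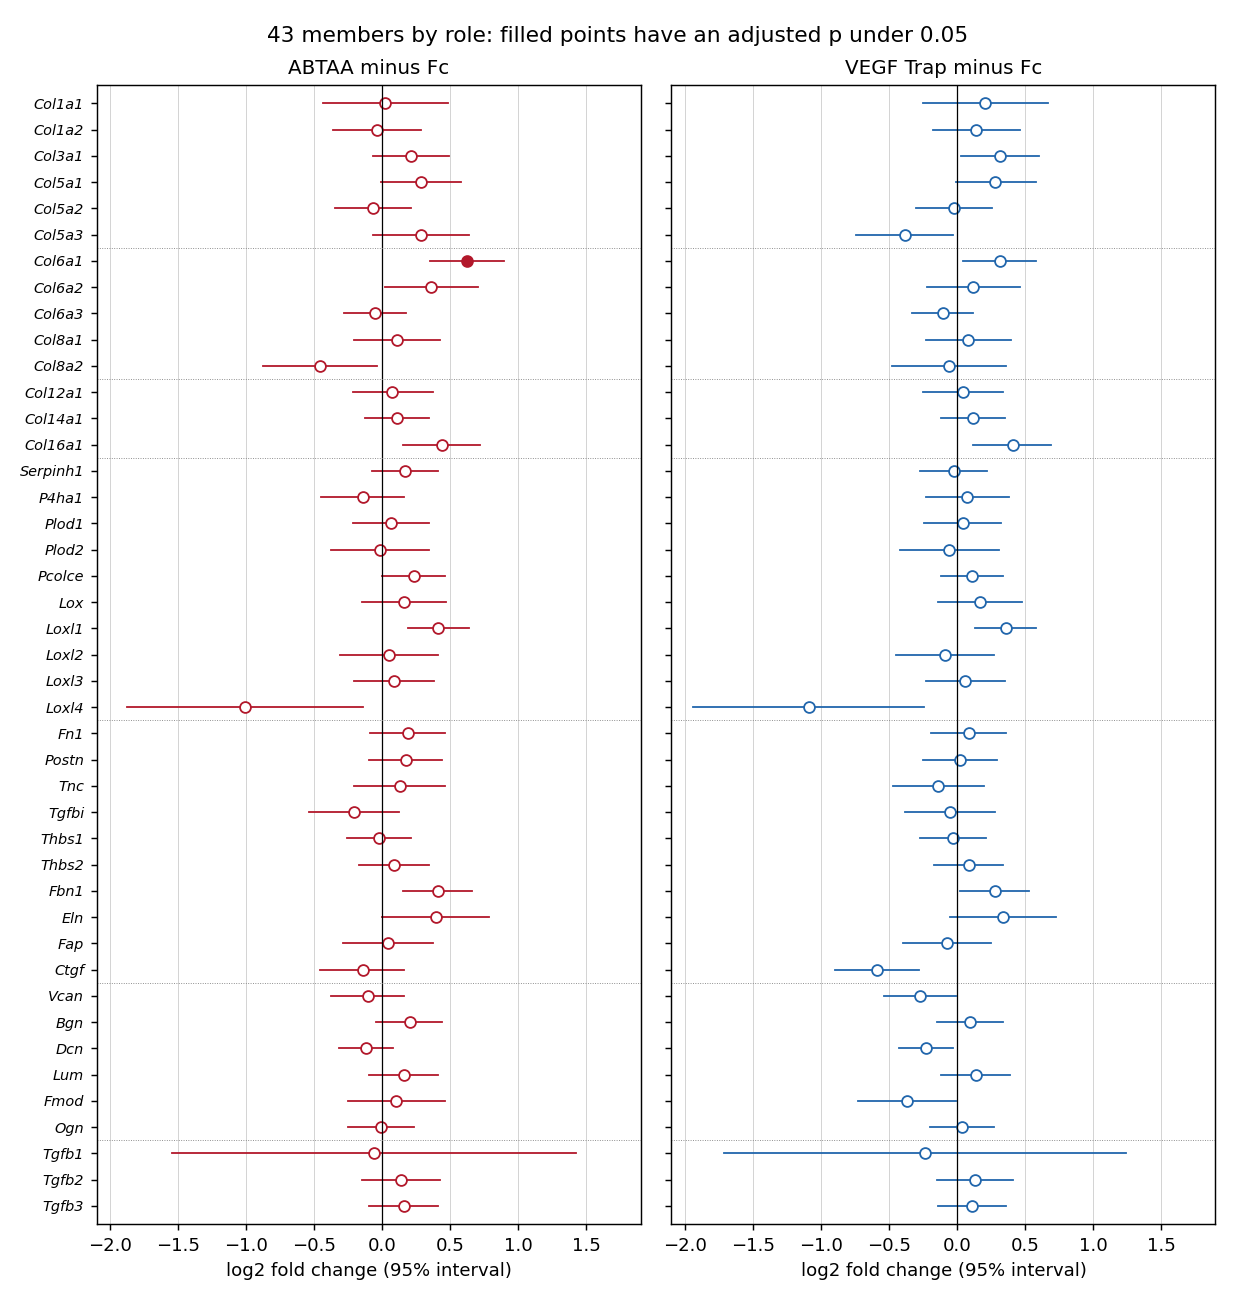
The log2 fold change of each of the 43 members, ABTAA minus Fc on the left and VEGF Trap minus Fc on the right, with its 95% interval; genes run down the page by role, with dotted lines between roles, and a filled point marks an adjusted p under 0.05. The 1 filled point is Col6a1 at 0.62 in ABTAA minus Fc, and the widest intervals are those of Tgfb1 and Loxl4.

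Collagen VI forms beaded filaments around cells from an alpha 1, an alpha 2 and an alpha 3 chain. Col6a1, at chr10:76708792-76726168 on the minus strand (GRCm38), had 48.6, 55.1 and 46.9 CPM in ABTAA libraries and 39.8, 40.3 and 41.7 CPM in VEGF Trap libraries, against 33.6, 33.7 and 30.8 CPM in Fc libraries. The 3 groups did not overlap with each other, with ABTAA highest and Fc lowest. The log2 fold change was 0.62 ± 0.13 (SE) for ABTAA minus Fc (1.54-fold, adjusted p = 0.034). It was 0.31 ± 0.13 for VEGF Trap minus Fc (adjusted p = 0.237) and 0.31 ± 0.13 for ABTAA minus VEGF Trap (adjusted p = 0.953), and neither passed. The call was lost with a correction for GC content (adjusted p = 0.0666), and without ABTAA replicate 1 (0.0708) or 2 (0.164) or any of Fc replicates 1 (0.0699), 2 (0.125) and 3 (0.098), while the log2 fold change stayed between 0.55 and 0.66.

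The gene for the alpha 2 chain, Col6a2, lies on chromosome 10 like Col6a1, with 85161 bases between them. It had 46.7, 39.5 and 35.5 CPM in ABTAA libraries and 35.0, 33.3 and 34.9 in VEGF Trap libraries, against 39.2, 29.1 and 26.9 in Fc libraries. Fc replicate 1 lay among the ABTAA libraries, so those groups overlapped, and ABTAA minus Fc was 0.36 ± 0.16 (adjusted p = 0.268). All ABTAA libraries lay above all VEGF Trap libraries, with a difference of 0.24 ± 0.16 (adjusted p = 0.963). Col6a3 codes for the large alpha 3 chain and lies on chromosome 1. It had 1089, 956 and 889 CPM in ABTAA libraries and 1012, 943 and 883 in VEGF Trap libraries, against 1078, 928 and 1038 in Fc libraries. The groups overlapped, and the log2 fold changes were -0.05 ± 0.11 for ABTAA minus Fc (95% interval -0.28 to 0.17) and -0.10 ± 0.11 for VEGF Trap minus Fc (-0.33 to 0.12).

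The ratio of Col6a3 to Col6a1 counts was 22.4, 17.4 and 19.0 in ABTAA libraries and 25.4, 23.4 and 21.2 in VEGF Trap libraries, against 32.1, 27.6 and 33.7 in Fc libraries. The Fc libraries all lay above both other groups, which overlapped. This ratio was chosen after the values were seen and has no test, and it shows unequal change of the 2 chains, not which of them moved. For 6 pairs of partner chains the correlation of log2 CPM over the 9 libraries was computed, with exact permutation tests. Col6a1 and Col6a2 gave r = 0.70 (exact permutation p = 0.034, 0.102 after Benjamini-Hochberg adjustment over the 6 pairs) and rho = 0.68 (exact p = 0.0503, adjusted 0.101). Without ABTAA replicate 2 and Fc replicate 3, the 2 libraries farthest from the median of Col6a1, r was 0.54, and with the group means removed it was 0.31, so the relation rests in part on those libraries and on the difference between groups. Col6a1 and Col6a3 gave r = -0.24 (exact permutation p = 0.519, adjusted 0.519) and rho = -0.20 (exact p = 0.613, adjusted 0.613). Col6a2 and Col6a3 gave r = 0.33 (exact permutation p = 0.389, adjusted 0.467) and rho = 0.38 (exact p = 0.312, adjusted 0.374). With the group means removed, r was -0.15 for Col6a1 and Col6a3 and 0.64 for Col6a2 and Col6a3.

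**Figure D2:**
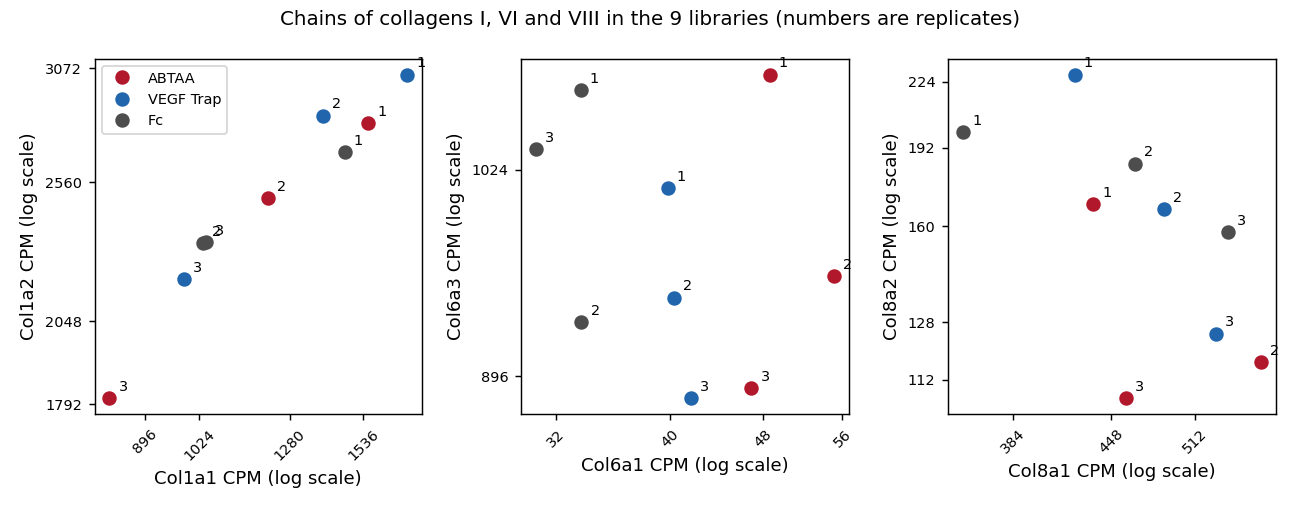
CPM of partner chains in each of the 9 libraries on log axes, Col1a2 against Col1a1 (left), Col6a3 against Col6a1 (middle) and Col8a2 against Col8a1 (right); each point is a library, coloured by group and numbered by replicate. The collagen I points lie close to a line in which groups mix, the collagen VI points spread by group along the Col6a1 axis, and the collagen VIII points slope downward.

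Collagen VIII is a short-chain collagen of vessel walls and of basement membranes in the eye. Col8a2, its alpha 2 chain, had 168.5, 117 and 107 CPM in ABTAA libraries and 228, 166 and 125 in VEGF Trap libraries, against 199, 185 and 158 in Fc libraries. ABTAA replicate 1 lay among the Fc libraries, and ABTAA minus Fc was -0.46 ± 0.20 (adjusted p = 0.249), a difference that edgeR called with no filter on low counts (adjusted p = 0.0405). Col8a1 had 436, 568 and 459 CPM in ABTAA libraries and 423, 488 and 529 in VEGF Trap libraries, against 355, 466 and 539 in Fc libraries, with a log2 fold change of 0.11 ± 0.15 for ABTAA minus Fc. The 2 chains gave r = -0.63 (exact permutation p = 0.0696, adjusted 0.139) and rho = -0.68 (exact p = 0.0503, adjusted 0.101), with r = -0.45 without Fc replicate 1 and ABTAA replicate 2 and r = -0.66 with the group means removed.

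Among the 6 fibrillar collagens none was called in any comparison. Collagen I, the main collagen of scars, is built from the products of Col1a1 and Col1a2. Col1a1 had 1554, 1213 and 820.5 CPM in ABTAA libraries and 1711, 1391 and 985 in VEGF Trap libraries, against 1467, 1033 and 1040 in Fc libraries. Col1a2 had 2815, 2494 and 1811 CPM in ABTAA libraries and 3041, 2848 and 2191 in VEGF Trap libraries, against 2686, 2320 and 2325 in Fc libraries. For both genes the groups overlapped throughout, and the lowest value was that of ABTAA replicate 3, the shallowest library. The Col1a1 difference was 0.02 ± 0.22 for ABTAA minus Fc (95% interval -0.44 to 0.48) and 0.21 ± 0.22 for VEGF Trap minus Fc (-0.25 to 0.67). The Col1a2 difference was -0.04 ± 0.15 (-0.36 to 0.28) and 0.14 ± 0.15 (-0.18 to 0.46) in the same comparisons. These intervals do not show that collagen I was equal, and for ABTAA minus Fc they end below 0.49 on the log2 scale.

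The 2 collagen I genes varied together from library to library, with r = 0.97 (exact permutation p = 3.58e-05, adjusted 0.000215) and rho = 0.95 (exact p = 0.000353, adjusted 0.00212). The relation held without ABTAA replicate 3 and VEGF Trap replicate 1 (r = 0.96) and with the group means removed (r = 0.98). In both groups with a shallow library, ABTAA and VEGF Trap, that library had the lowest collagen I, and the part of depth in this was not tested.

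Collagen III, which is laid down early in wound repair, had no called difference either. Col3a1 had 543, 585 and 511 CPM in ABTAA libraries and 682, 586 and 496 in VEGF Trap libraries, against 526, 390.4 and 502 in Fc libraries. Of the ABTAA libraries, replicate 3 lay inside the Fc range, and the log2 fold change was 0.21 ± 0.13 (adjusted p = 0.459). For VEGF Trap minus Fc it was 0.32 ± 0.13 (adjusted p = 0.259), with VEGF Trap replicate 3 inside the Fc range. Col5a2 codes for a chain of collagen V, which starts fibrils of collagen I, and lies 24614 bases from Col3a1 on chromosome 1 on the other strand; its log2 fold changes were -0.07 and -0.02 in the comparisons of ABTAA and VEGF Trap with Fc. Col5a1, another chain of collagen V, had 84.0, 99.4 and 77.5 CPM in ABTAA libraries and 85.6, 99.8 and 74.4 in VEGF Trap libraries, against 75.6, 64.7 and 73.9 in Fc libraries. All ABTAA libraries lay above all Fc libraries, with a difference of 0.29 ± 0.14 (adjusted p = 0.311). Col5a1 and Col5a2 gave r = 0.45 (exact permutation p = 0.225, adjusted 0.338) and rho = 0.60 (exact p = 0.0968, adjusted 0.145), with r = 0.30 without VEGF Trap replicate 2 and ABTAA replicate 2 and r = 0.78 with the group means removed.

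Col5a3 codes for the alpha 3 chain of collagen V and had the smallest p of the members between ABTAA and VEGF Trap. It had 45.4, 44.3 and 52.5 CPM in ABTAA libraries and 24.8, 36.2 and 28.25 CPM in VEGF Trap libraries, against 46.6, 36.7 and 33.6 CPM in Fc libraries. The ABTAA libraries all lay above the VEGF Trap libraries, with the Fc libraries reaching into both. ABTAA minus VEGF Trap was 0.67 ± 0.17 (1.59-fold, unadjusted p = 0.00121, adjusted p = 0.852), and no gene of the 14054 passed in that comparison. The difference from Fc was 0.28 ± 0.17 for ABTAA (adjusted p = 0.42) and -0.38 ± 0.17 for VEGF Trap (adjusted p = 0.28).

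Of the 3 fibril-associated collagens, which sit on the surface of fibrils, Col16a1 differed most from Fc in both comparisons and was not called by edgeR. It had 296, 339 and 251 CPM in ABTAA libraries and 250.0, 313 and 307 in VEGF Trap libraries, against 245.5, 194 and 217 in Fc libraries. Neither group overlapped with Fc. Its log2 fold change was 0.44 ± 0.13 for ABTAA minus Fc (adjusted p = 0.109) and 0.41 ± 0.13 for VEGF Trap minus Fc (adjusted p = 0.139). DESeq2 called it in both (adjusted p = 0.0313 and 0.049), and edgeR with no filter on low counts called it with ABTAA. Col12a1 and Col14a1 gave 0.07 ± 0.14 and 0.10 ± 0.11 for ABTAA minus Fc, and 0.05 ± 0.14 and 0.12 ± 0.11 for VEGF Trap minus Fc, with overlapping libraries.

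**Figure D3:**
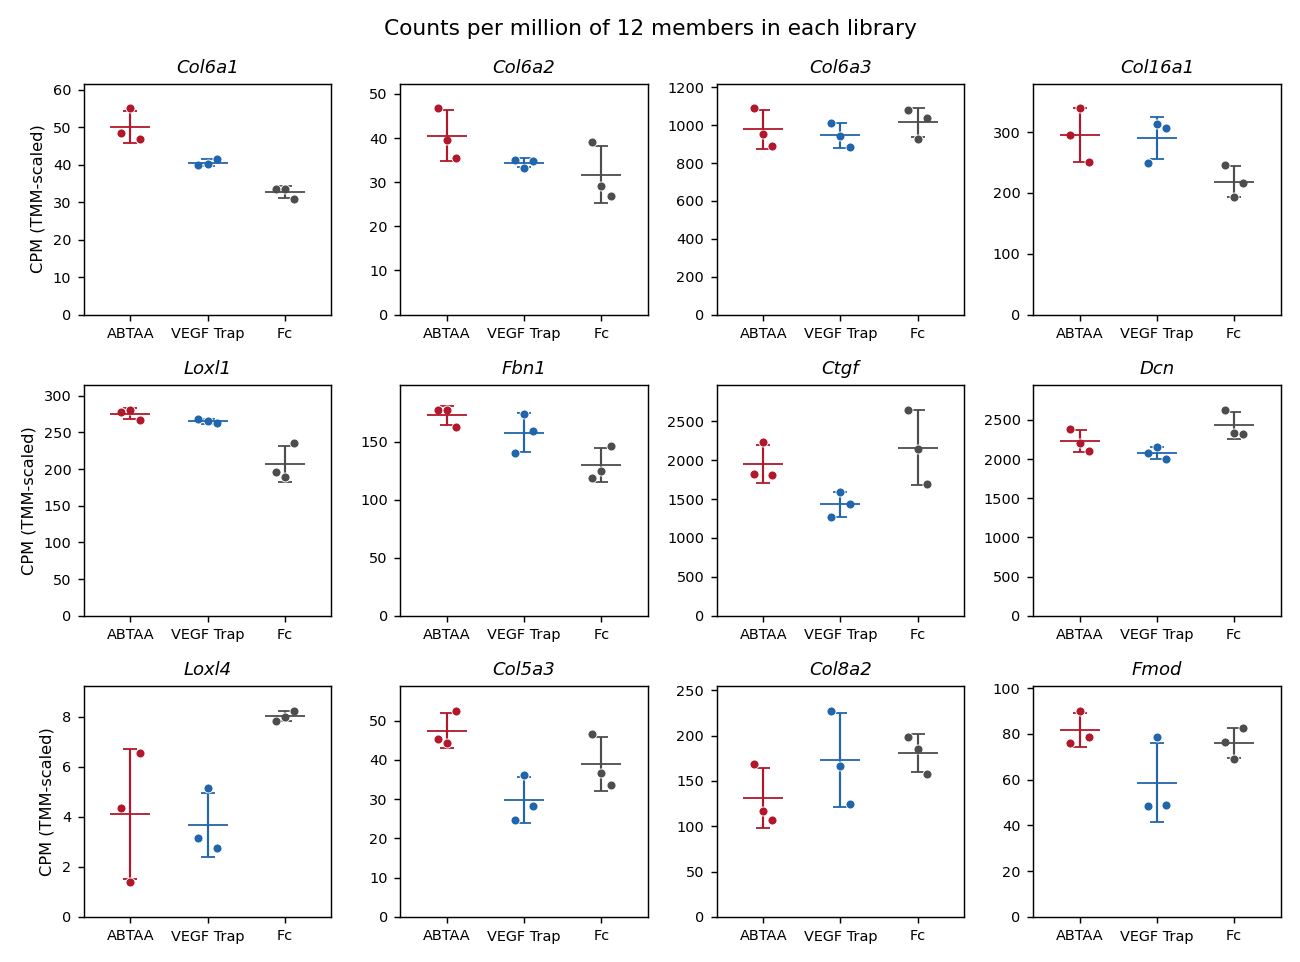
CPM of 12 members in each library, with the mean (long bar) and SD (whiskers) of the 3 libraries of each group; each panel is a gene and its vertical axis starts at 0. Col6a1 separates all 3 groups, Col16a1, Loxl1 and Loxl4 separate Fc from both other groups, and Ctgf is lowest in the VEGF Trap libraries, between 1270 and 1593 CPM.

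None of the 10 genes of collagen maturation and crosslinking was called by edgeR. Loxl1, a lysyl oxidase needed for elastic fibres, came closest among them. It had 278, 281 and 267 CPM in ABTAA libraries and 269, 265.4 and 262 in VEGF Trap libraries, against 196.5, 189.5 and 235 in Fc libraries. Both groups lay above all Fc libraries, and the spread within them was small. The log2 fold change was 0.41 ± 0.11 for ABTAA minus Fc (1.33-fold, adjusted p = 0.064) and 0.36 ± 0.11 for VEGF Trap minus Fc (1.28-fold, adjusted p = 0.106). Over the 19 alternatives, ABTAA minus Fc passed in 4 and VEGF Trap minus Fc in 1, with log2 fold changes from 0.24 to 0.51 and from 0.27 to 0.45.

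Lox, the lysyl oxidase that crosslinks collagen and elastin, had 1906, 1540 and 1251 CPM in ABTAA libraries and 1763, 1515 and 1447 in VEGF Trap libraries, against 1627, 1326 and 1250 in Fc libraries. The groups overlapped, with log2 fold changes of 0.16 ± 0.14 (adjusted p = 0.625) and 0.17 ± 0.14 (adjusted p = 0.621) against Fc. Serpinh1 codes for HSP47 and had 5144, 4902 and 3827 CPM in ABTAA libraries and 4037, 4123 and 3990 in VEGF Trap libraries, against 4695, 3940 and 3733 in Fc libraries. Those groups also overlapped, at 0.17 ± 0.12 (adjusted p = 0.513) and -0.03 ± 0.12 (adjusted p = 0.953). All counts of Serpinh1 were multiples of 4, which the deposited tables do not explain.

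Loxl4, another lysyl oxidase-like enzyme, was the member with the lowest log2 fold change in both comparisons with Fc, on 14 to 108 counts a library, all of them even. It had 4.33, 1.39 and 6.56 CPM in ABTAA libraries and 3.15, 5.15 and 2.77 in VEGF Trap libraries, against 7.84, 7.97 and 8.24 in Fc libraries. Every ABTAA and VEGF Trap library lay below every Fc library. The log2 fold change was -1.01 ± 0.41 for ABTAA minus Fc (adjusted p = 0.22) and -1.09 ± 0.40 for VEGF Trap minus Fc (adjusted p = 0.191, and 0.0483 with no filter on low counts). Pcolce, which enhances the trimming of procollagen, lay above Fc in all ABTAA libraries at 0.23 ± 0.11 (adjusted p = 0.3). The remaining 5 genes, the hydroxylases P4ha1, Plod1 and Plod2 and the lysyl oxidases Loxl2 and Loxl3, had log2 fold changes between -0.15 and 0.09 for ABTAA minus Fc and between -0.09 and 0.07 for VEGF Trap minus Fc.

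Of the 10 glycoproteins and elastic fibre proteins none was called by edgeR. Connective tissue growth factor, a secreted target of TGF-beta and YAP signalling, is the product of Ctgf, named Ccn2 in GENCODE. Ctgf had 1816, 2236 and 1805 CPM in ABTAA libraries and 1270, 1593 and 1439 CPM in VEGF Trap libraries, against 2651, 2144 and 1688 CPM in Fc libraries. The VEGF Trap libraries all lay below the Fc and the ABTAA libraries, and the Fc libraries spread widely. VEGF Trap minus Fc was -0.59 ± 0.15 (0.664-fold, adjusted p = 0.0607), the smallest p of the members in that comparison. It passed in 6 of 19 alternatives, which include DESeq2, library totals and the omission of Fc replicate 3, with log2 fold changes from -0.75 to -0.42. ABTAA minus Fc was -0.15 ± 0.15 (adjusted p = 0.672), and ABTAA minus VEGF Trap was 0.44 ± 0.15 (adjusted p = 0.932). Ctgf shares exon bases with Gm15270 on the other strand, and no source used here states whether the counting read the strand.

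Fbn1 codes for fibrillin-1, the main protein of microfibrils. It had 178, 177 and 163 CPM in ABTAA libraries and 140.1, 174 and 159 in VEGF Trap libraries, against 119, 125 and 147 in Fc libraries. The ABTAA libraries lay above the Fc libraries, with a log2 fold change of 0.41 ± 0.12 (1.33-fold, adjusted p = 0.0937 by edgeR and 0.021 by DESeq2), and VEGF Trap replicate 1 lay inside the Fc range, with 0.28 ± 0.12 (adjusted p = 0.269). Eln, which codes for elastin, the elastic core of those fibres, had 187.3, 212.1 and 134.9 CPM in ABTAA libraries and 159.8, 219 and 135.3 in VEGF Trap libraries, against 142, 115 and 150.5 in Fc libraries. The shallow replicate 3 of ABTAA and of VEGF Trap lay inside the Fc range, and the log2 fold changes were 0.39 ± 0.18 (adjusted p = 0.291) and 0.34 ± 0.18 (adjusted p = 0.398).

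Fn1 codes for fibronectin, on which collagen fibrils are first assembled. It had 4807, 4531 and 3738 CPM in ABTAA libraries and 4187, 4347 and 3666 in VEGF Trap libraries, against 4450, 3170 and 3867 in Fc libraries. The groups overlapped, with log2 fold changes of 0.19 ± 0.13 (adjusted p = 0.498) and 0.09 ± 0.13 (adjusted p = 0.804) against Fc. The end of Fn1 has near-identical copies elsewhere, in Casc4 among others, so reads could be shared with them and its value is uncertain. Postn codes for periostin, a matricellular protein known in fibrovascular membranes of the eye. It had 165, 178 and 218 CPM in ABTAA libraries and 184.5, 176 and 143.5 in VEGF Trap libraries, against 167, 163 and 166.5 in Fc libraries. The Fc libraries spread less than the other 2 groups, and the log2 fold changes were 0.17 ± 0.13 (adjusted p = 0.532) and 0.02 ± 0.13 (adjusted p = 0.961). Tnc (tenascin-C), Tgfbi, Thbs1 and Thbs2 (thrombospondins) and Fap (a protease of activated fibroblasts) had log2 fold changes between -0.21 and 0.13 for ABTAA minus Fc and between -0.14 and 0.09 for VEGF Trap minus Fc, all with overlapping libraries.

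Of the 6 proteoglycans, some of which bind to fibrils and set their spacing, none was called. Dcn, which codes for decorin, had 2387, 2204 and 2105 CPM in ABTAA libraries and 2074, 2152 and 2000 in VEGF Trap libraries, against 2632, 2337 and 2321 in Fc libraries. The VEGF Trap libraries all lay below the Fc libraries, with a difference of -0.23 ± 0.09 (0.854-fold, adjusted p = 0.251), and ABTAA minus Fc was -0.12 ± 0.09 (adjusted p = 0.559). Fmod codes for fibromodulin, a relative of decorin, and had 76.2, 90.2 and 78.6 CPM in ABTAA libraries and 48.7, 78.5 and 49.0 in VEGF Trap libraries, against 76.5, 69.2 and 82.5 in Fc libraries. VEGF Trap replicate 2 stood apart from the other 2 VEGF Trap libraries, and ABTAA minus VEGF Trap was 0.47 ± 0.17 (unadjusted p = 0.0141, adjusted p = 0.949). Lum, 46984 bases from Dcn on chromosome 10, had log2 fold changes of 0.15 ± 0.12 and 0.14 ± 0.12 for ABTAA and VEGF Trap minus Fc, both above 0 where those of Dcn were below 0. Vcan, the large proteoglycan versican, gave -0.11 ± 0.13 and -0.27 ± 0.13, and Bgn (biglycan) gave 0.20 ± 0.12 and 0.09 ± 0.12. Ogn (osteoglycin) varied least of all members, between 62.3 and 69.1 CPM over the 9 libraries, a ratio of highest to lowest of 1.11.

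The 3 TGF-beta ligands are secreted in a latent form and activated in the matrix, so their transcripts do not measure signalling. Tgfb2 had 44.1, 39.4 and 36.7 CPM in ABTAA libraries and 41.7, 40.65 and 37.4 in VEGF Trap libraries, against 40.7, 34.25 and 34.8 in Fc libraries, which overlapped. Its log2 fold changes were 0.13 ± 0.13 (adjusted p = 0.669) and 0.13 ± 0.13 (adjusted p = 0.698) against Fc. Tgfb3 had 61.0, 56.6 and 55.95 CPM in ABTAA libraries and 57.6, 56.7 and 53.6 in VEGF Trap libraries, against 54.8, 47.8 and 53.1 in Fc libraries. The ABTAA libraries lay above the Fc libraries by a small margin, at 0.16 ± 0.12 (adjusted p = 0.553), and VEGF Trap minus Fc was 0.11 ± 0.12 (adjusted p = 0.713). Tgfb1 was counted only 3 to 16 times a library, with 1.65, 0.297 and 1.09 CPM in ABTAA libraries and 1.325, 0.418 and 0.969 in VEGF Trap libraries, against 0.653, 1.27 and 1.22 in Fc libraries. The limit that 3 counts set was between 0.208 and 0.473 CPM by library, and the SE of its log2 fold changes was near 0.70, so a change of Tgfb1 was not detectable at this depth.

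**Figure D4:**
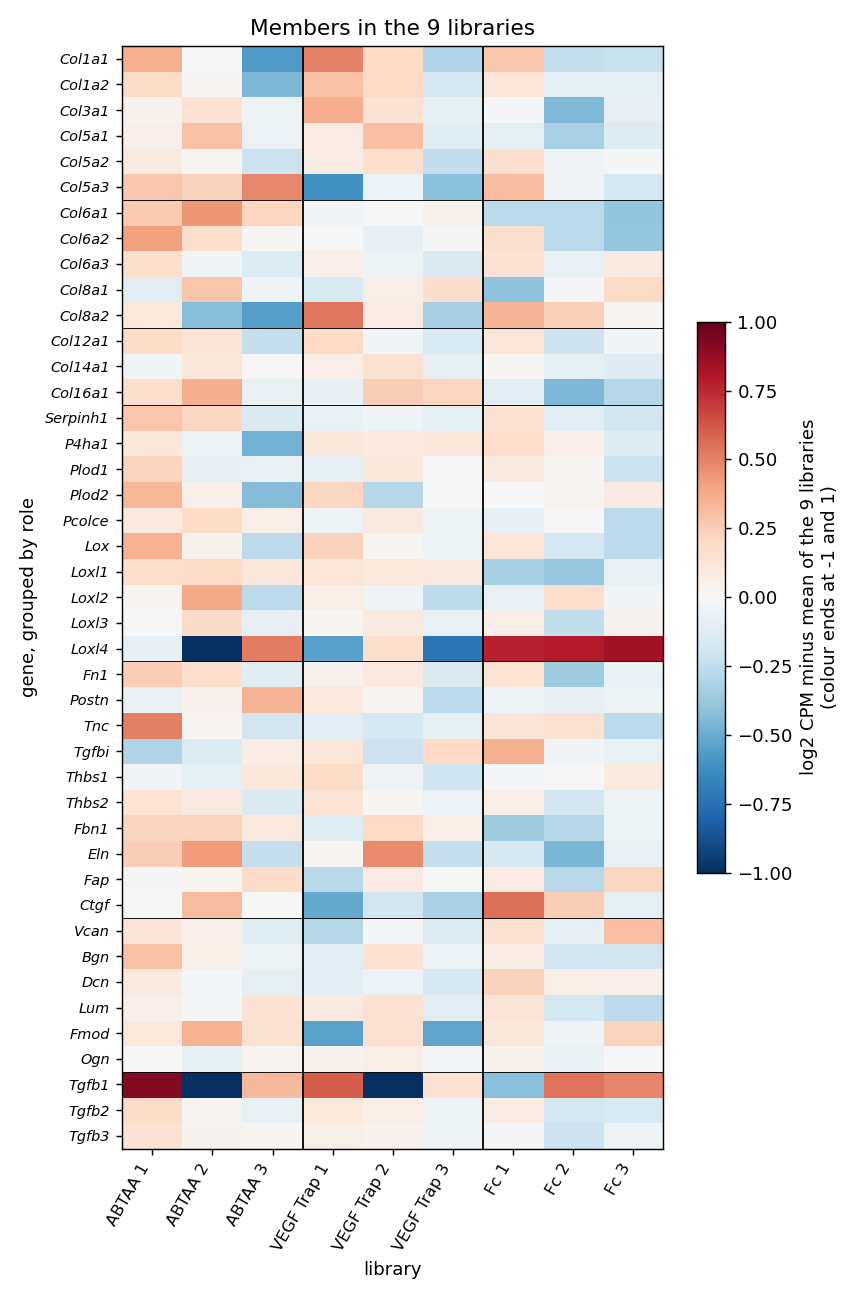
The log2 CPM of each member in each library minus its mean over the 9 libraries, with genes by role from top to bottom and groups from left to right, and colours that end at -1 and 1. Col6a1 is red in the ABTAA columns, pale in the VEGF Trap columns and blue in the Fc columns, Loxl4 is deep red in the Fc columns, and Col1a1 and Col1a2 follow single libraries across the groups.

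The ratio of the highest to the lowest of the 9 libraries had a median of 1.52, was under 1.5 for 19 members and over 2 for 6, with Loxl4 at 5.94 and Tgfb1 at 5.55 the widest. ABTAA replicate 1 was the highest library for 13 members, and Fc replicates 2 and 3 were the lowest for 11 and 10. The libraries of ABTAA and Fc did not overlap for 7 members with ABTAA higher (Col6a1, Loxl1, Fbn1, Col16a1, Col5a1, Pcolce and Tgfb3), 16.3% of members against 11.7% of all genes tested, and for 1 with ABTAA lower (Loxl4), 2.33% against 11.3%. In either direction 23% of all genes did not overlap. Those of VEGF Trap and Fc did not overlap for 3 members higher (Col6a1, Loxl1, Col16a1) and 3 lower (Loxl4, Ctgf, Dcn), 6.98% each, against 10.4% of all genes higher, 10.5% lower and 20.9% in either direction. Those of ABTAA and VEGF Trap did not overlap for 4 members, all higher (Col5a3, Col6a1, Col6a2, Ctgf), 9.3% against 5.14% of all genes higher, 4.74% lower and 9.88% in either direction.

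Other genes of the same pathways were read from 4 lists. Among 24 tested receptors, latency proteins and mediators of TGF-beta signalling edgeR called 0 in each comparison. At an unadjusted p under 0.05 there were 3 higher and 2 lower in ABTAA than in Fc libraries (8.64% and 8.23% of all genes), 1 higher and 2 lower in VEGF Trap than in Fc libraries (7.89% and 7.49% of all genes), and 0 in ABTAA minus VEGF Trap. DESeq2 called Ltbp4 higher with ABTAA, and limma-voom called 0 there. Ltbp4, a latent TGF-beta binding protein, gave 0.62 ± 0.20 for ABTAA minus Fc (adjusted p = 0.115). The receptors Tgfbr1 and Tgfbr2 gave -0.41 ± 0.15 (adjusted p = 0.179) and 0.30 ± 0.13 (adjusted p = 0.25).

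Among 22 tested genes of collagen biosynthesis outside the members edgeR called 0 in each comparison. At an unadjusted p under 0.05 there were 1 higher and 4 lower in each comparison with Fc, beside the same shares of all genes, and 0 in ABTAA minus VEGF Trap. DESeq2 called Colgalt1 higher and P3h4 and Hspa5 lower in both comparisons with Fc, and limma-voom called the same 3 with VEGF Trap and P3h4 and Hspa5 with ABTAA. P3h4 is named as a member of the prolyl 3-hydroxylase family. It had 62.2, 48.5 and 66.6 CPM in ABTAA libraries and 62.0, 59.7 and 44.9 in VEGF Trap libraries, against 99.3, 87.6 and 79.0 in Fc libraries. Every library of both groups lay below every Fc library, with -0.59 ± 0.16 (adjusted p = 0.0696) and -0.67 ± 0.16 (adjusted p = 0.0509). Hspa5, the general chaperone of the endoplasmic reticulum, gave -0.33 ± 0.09 (adjusted p = 0.0736) and -0.37 ± 0.09 (adjusted p = 0.0593). Colgalt1, which adds galactose to collagen, gave 0.34 ± 0.11 (adjusted p = 0.113) and 0.46 ± 0.11 (adjusted p = 0.0512).

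Among 31 tested genes of other interstitial matrix edgeR called 0 in each comparison, and at an unadjusted p under 0.05 there were 6 higher and 0 lower with ABTAA (8.64% and 8.23% of all genes), 5 higher and 1 lower with VEGF Trap (7.89% and 7.49%), and 0 higher and 2 lower in ABTAA minus VEGF Trap (2.64% and 2.42%). DESeq2 called Fbln1 and Mfap2 higher with ABTAA and Fbln1 and Spp1 higher with VEGF Trap, and limma-voom called the same pair with ABTAA and Spp1 with VEGF Trap. Fbln1, a fibulin of elastic fibres, gave 0.61 ± 0.15 for ABTAA minus Fc (adjusted p = 0.0553) and 0.46 ± 0.15 for VEGF Trap minus Fc (adjusted p = 0.134). Mfap2, a microfibril protein that binds fibrillin, gave 0.69 ± 0.18 (adjusted p = 0.0654) and 0.34 ± 0.18 (adjusted p = 0.38). Spp1 (osteopontin) gave 0.12 ± 0.12 (adjusted p = 0.676) for ABTAA minus Fc, 0.51 ± 0.12 (adjusted p = 0.0593) for VEGF Trap minus Fc and -0.39 ± 0.12 (adjusted p = 0.932) for ABTAA minus VEGF Trap. Among 11 tested collagen receptors and uptake genes edgeR, DESeq2 and limma-voom called 0, and at an unadjusted p under 0.05 there was 1 lower with ABTAA, 0 with VEGF Trap and 0 in ABTAA minus VEGF Trap.

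Markers of other cell types that moved with the groups are given beside these values, and their part in them was not tested; calls are edgeR's unless another tool is named. Fibroblast markers, summed over 18 genes, lay between 1957 and 2215 CPM in ABTAA libraries and 1814 and 2106 in VEGF Trap libraries, against 1686 and 1909 in Fc libraries. A large part of this sum was Gsn, at 875, 817 and 791 CPM, 720, 898 and 746, and 709, 641 and 613 in the same groups. In both comparisons with Fc edgeR called 0 of 17 tested (DESeq2 3 and 2, limma-voom 0 and 2). Log2 fold changes lay above 0 for 11 and below for 6 with ABTAA, and for 9 and 8 with VEGF Trap. Pdgfra gave -0.29 ± 0.15 (adjusted p = 0.34) for ABTAA minus Fc. The sum of 15 myofibroblast, pericyte and smooth muscle markers lay between 1253 and 1592 CPM, 914 and 1227, and 976 and 1248 in the same groups. Myl9 was called higher with ABTAA, and DESeq2 and limma-voom called Myl9 and Des there. With VEGF Trap only DESeq2 made a call, Mcam lower. Acta2, which was not called, was a large part of this sum, at 620, 859 and 762 CPM, 391, 622 and 667, and 446, 539 and 616. The sum of 15 endothelial markers lay between 2910 and 3056 CPM, 2245 and 2487, and 1914 and 2445. With ABTAA, edgeR, DESeq2 and limma-voom each called 5 higher. With VEGF Trap, edgeR called 0, DESeq2 3 (Cldn5, Eng, Plvap) and limma-voom 2 (Cldn5, Eng). Egfl7, 1 of the 5 called with ABTAA, was a large part of this sum, at 1520, 1420 and 1440 CPM, 1200, 1230 and 1040, and 1170, 902 and 928. The sum of 14 skeletal muscle markers lay between 254 and 532 CPM, 249 and 437, and 121 and 186. Of these, 8 were called higher with ABTAA and 3 with VEGF Trap (DESeq2 8 and 7, limma-voom 9 and 4). All 14 had log2 fold changes above 0 in both comparisons with Fc, with medians of 1.38 and 1.05. The sum of 11 scleral and corneal markers lay between 2091 and 2461 CPM, 2237 and 2307, and 1879 and 1920. Ptgds was called higher in both comparisons by edgeR, DESeq2 and limma-voom, and DESeq2 also called Chad higher with ABTAA. Ptgds made up most of this sum, at 1440, 1720 and 1370 CPM, 1650, 1540 and 1560, and 1010, 1160 and 1100. Of the 11 markers, 6 had log2 fold changes above 0 and 5 below for ABTAA minus Fc. For VEGF Trap minus Fc, 5 lay above 0 and 6 below, so the sum does not describe the markers as a set. Macrophage markers, summed over 14 genes, lay between 1709 and 1971 CPM, 2077 and 2287, and 2135 and 2297, with C1qb and Fcgr3 called lower with ABTAA (DESeq2 6, limma-voom 4) and 0 with VEGF Trap (DESeq2 1, limma-voom 0). Melanocyte markers, summed over 10 genes, lay between 3118 and 3236 CPM, 2598 and 4448, and 2461 and 2845. Of these, 1 was called higher with ABTAA and 2 with VEGF Trap (DESeq2 3 and 3, limma-voom 1 and 2). Dct, which was not called, made up most of this sum, at 2360, 2150 and 2270 CPM, 3530, 2430 and 1800, and 1800, 2010 and 1970. The RPE is also pigmented, and these values do not tell its cells from melanocytes. Schwann cell, RPE, photoreceptor and lens markers had 0 called by edgeR, DESeq2 and limma-voom in both comparisons. No marker was at 0 in all libraries, and Tcf21 of fibroblasts, Best1 of the RPE, 3 photoreceptor and 7 lens genes were at 0 in at least 1.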

How the data were processed

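RNA of 9 libraries, 3 for each reagent, was prepared with a Lexogen QuantSeq kit from total RNA, per the labels' protocols. The deposited tables hold raw counts per gene symbol, 1 table a library. Bowtie2, edgeR and the mm10 build are named in the submitters' processing notes; the annotation, counter and strand setting were not given in the sources used here. Depth was 6335805 to 14439835 counts, of which the ribosomal gene Rn45s took 10.05% to 15.82%, and 1616 of 14167 genes with counts in every library (11.41%) had even counts only. Where table headings (ctrl-KO) and titles (Fc) differ, the titles set the group.

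Counts were tested in R 4.3.3 with edgeR 4.0.16 (filterByExpr, TMM scaling, quasi-likelihood test, 1 fit of all 9 libraries with 6 residual degrees of freedom, Benjamini-Hochberg adjustment over 14054 genes). CPM values are TMM-scaled. Alternatives used DESeq2 1.42.0, limma 3.58.1 (voom with quality weights), other scalings and filters, only the compared groups, a replicate block, counts divided by their common divisor, a GC correction, and the omission of each library. The tests were checked on simulated counts. Correlations used SciPy 1.17.1 in Python 3.11.15, and copies of transcript ends were searched with BLAST 2.17.0. Of 24421 symbols, 24026 matched GENCODE M21 (GRCm38), 650 of them through a synonym. Of the 43 members, 14 share exon bases with a gene on the other strand and 3 with one on the same strand. The counts of Plod2 and Loxl4 were all even.

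Members and lists were chosen with earlier results of these data known. Members are named in full where called, where among the 3 smallest p of a comparison, or where they are Col1a1, Col1a2, Col3a1, a collagen VI chain, Fn1, Postn, Lox, Serpinh1, Ctgf or a TGF-beta ligand; values of other members (Col5a1, Col8a1, Col8a2, Eln, Vcan, Bgn, Lum and Ogn among them) were chosen for print after they were seen. Of the other pathway genes, up to 6 per comparison with the smallest p were eligible. The floor of 3 counts covers counting error only. A result of the TGF-beta list is not reported here.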

Additional observations from a re-analysis of the deposited data

How the results depend on the processing

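The 19 alternatives moved counts of calls, and they also moved the sign of members with small log2 fold changes. For ABTAA minus Fc, the 197 genes called by edgeR became 750 with DESeq2, 411 with limma-voom, 684 with no filter, 301 with only the compared groups, 334 with the replicate block and 64 with the GC correction, and 0 to 373 with 1 library left out (0 without ABTAA replicate 2, 13 without Fc replicate 2). The 1 member called higher became 4, 2 and 3 with DESeq2, limma-voom and no filter, 0 with the GC correction, and 0 to 2 with 1 library left out. No member was called lower, against 1 (Col8a2) with no filter and 1 with the replicate block. For VEGF Trap minus Fc, the 144 genes called became 671 with DESeq2, 242 with limma-voom, 221 with library totals, 616 with no filter, 300 with the replicate block and 249 with common divisors removed, and 7 to 144 with 1 library left out (7 without Fc replicate 2). The 0 members called higher became 2 with DESeq2. The 0 called lower became 1 with DESeq2, library totals, the replicate block and common divisors removed (Ctgf in each), 2 with no filter (Ctgf and Loxl4), and 0 to 1 with 1 library left out. For ABTAA minus VEGF Trap, the 0 genes called became 1 with DESeq2, 30 with no filter and 1 with the replicate block. The causes were not tested.

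The split of called genes was 119 higher and 78 lower for ABTAA minus Fc, 66 and 106 with library totals and 46 and 18 with the GC correction; for VEGF Trap minus Fc it was 72 and 72, 39 and 182, and 100 and 37. Among 816 pairs of a member and an alternative in each comparison, the sign changed in 40 for ABTAA minus Fc, 33 for VEGF Trap minus Fc and 62 for ABTAA minus VEGF Trap, for members with log2 fold changes of at most 0.16, 0.24 and 0.19, and none was past the threshold on either side. Same-numbered libraries deviated together only weakly (correlations 0.01 to 0.13), so the numbers were not taken to pair them. With 3 libraries a group and a median SE of 0.20 on the log2 scale, small changes could be missed, and Tgfb1 and Loxl4 rest on few counts.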

Other observations

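Genes of elastic fibres and microfibrils were put together after the values were seen, so this list has no test. It holds 19 genes, among them elastin, fibrillins, fibulins, emilins, microfibril proteins, latent TGF-beta binding proteins and the lysyl oxidases Lox and Loxl1. For ABTAA minus Fc, 16 lay above 0 and 3 below, with a median log2 fold change of 0.21 and a range from -0.70 to 0.69. The libraries did not overlap for 5 genes, Fbn1, Loxl1, Fbln1, Fbln5 and Mfap2, all higher with ABTAA, and for 0 lower, where 11.7% of all genes tested did not overlap with ABTAA higher and 11.3% with ABTAA lower. For VEGF Trap minus Fc, 15 lay above 0 and 4 below, with a median of 0.19 and a range from -0.36 to 0.46, and 2 genes, Loxl1 and Mfap4, did not overlap, both higher, near the 10.4% of all genes higher (10.5% lower). For ABTAA minus VEGF Trap, 13 lay above 0 and 6 below, with a median of 0.05, and 1 gene, Fbln2, did not overlap and was lower with ABTAA, where 5.14% of all genes were higher and 4.74% lower.

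Fbln5, which codes for a fibulin that helps elastin assemble, had 34.4, 37.25 and 30.0 CPM in ABTAA libraries, against 24.0, 27.0 and 28.2 CPM in Fc libraries (log2 fold change 0.36 ± 0.14, adjusted p = 0.21 by edgeR). Mfap4, a protein that binds elastic fibres, had 78.4, 59.1 and 58.45 CPM in VEGF Trap libraries, against 51.2, 48.2 and 46.5 CPM in Fc libraries (0.43 ± 0.16, adjusted p = 0.213). Emilin2 had 7.12, 5.05 and 9.38 CPM in ABTAA libraries, against 14.9, 9.24 and 10.5 CPM in Fc libraries, with overlap (-0.70 ± 0.26, adjusted p = 0.181). None of the 19 genes was called by edgeR in any of the 3 comparisons.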
